A study of Drosophila melanogaster with 7 samples.

Results

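Elongating RNA polymerase II was followed along the chromatin that carries H3K36me3, using all peaks of both targets in chromatin immunoprecipitation sequencing (ChIP-seq) of Drosophila wing imaginal discs. These discs are the larval epithelia that give rise to the adult wing, and they were dissected at the third larval instar. Ser2P is polymerase phosphorylated at serine 2 of its C-terminal repeat, and H3K36me3 is histone H3 trimethylated at lysine 36. Every Ser2P peak that shared at least 1 bp with an H3K36me3 peak was taken as a pair, which gave 2446 pairs from 2435 of 4828 Ser2P peaks and 2219 of 5760 H3K36me3 peaks, among 74390 peaks of the 6 targets. The labels give no genotype, strain or treatment for any of the 7 libraries, all of which come from the same tissue and stage. H3K4me3, Ser5P polymerase, ASH2 and H3K27me3 served for comparison.

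Each target had 1 library, so no replicate error could be measured and no test was made. Intervals in the text are exact binomial 95% intervals, which cover the counting of peaks only, and the range over the 5 chromosome arms (2L, 2R, 3L, 3R and X) is the spread within 1 library. The lists hold positions without heights or read counts, so the depth behind them is unknown and a place outside a list may still carry the target. A whole disc holds several cell populations, and a pair does not show that both targets lay on the same chromatin fibre.

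H3K36me3 is laid down behind elongating polymerase. The enzyme is Set2, which in yeast binds the phosphorylated C-terminal repeat and so travels with the polymerase, and which in flies also trimethylates H3K36 over the bodies of transcribed genes. H3K4me3 marks the promoter end of active genes, and serine 5 phosphorylation (Ser5P) is typical of polymerase close to the start site. The side on which the nearest H3K4me3 peak lies was therefore used as the direction of each H3K36me3 peak. No genes are named, and no sequence is printed, because no annotation or genome of the build of these lists (dm3) was used here.

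Ser2P peaks lay almost wholly inside their H3K36me3 peaks and filled most of them. In a median pair 99.6% of the Ser2P peak was inside (95% interval 99.3 to 99.8). Pooled over pairs, 96.3% of the bases of these Ser2P peaks were inside, and the arms ranged from 96.0 to 96.8%. From the other side, a median of 79.1% of the H3K36me3 peak was covered by the Ser2P peak (76.3 to 81.8). The interquartile range of that share was wide, from 44.9 to 95.1%, and the arm medians ran from 69.1% on 2R to 89.4% on X. A Ser2P peak in a pair was 1101 bp wide at the median, and its H3K36me3 peak 1762.5 bp.

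Even placement is used below as a yardstick: it is the average over every position at which a Ser2P peak of the same width would still touch the same H3K36me3 peak. The observed pairs shared a mean of 1257 bp, against 756 bp under even placement, which is 1.66 times as much. The largest overlap the widths allow is 1289 bp, so the pairs were close to that limit. The ratio lay between 1.61 on 2R and 1.71 on X. Even placement is a description and not a test, since the peaks of both lists depend on the same genome and on peak finding that is not stated.

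The share filled was lower in wider H3K36me3 peaks. H3K36me3 peaks were divided into 4 width quartiles over the whole list, with upper bounds of 784, 1257, 1956 and 13761 bp. The median share covered per pair was 92.1% in quartile 1 (91.0 to 94.0, 269 pairs), 91.2% in quartile 2 (89.7 to 92.3, 471 pairs), 84.8% in quartile 3 (81.5 to 87.9, 669 pairs) and 48.0% in quartile 4 (45.6 to 50.2, 1037 pairs). The interval of quartile 4 did not overlap those of the narrower quartiles. A pair counts 1 Ser2P peak at a time, and wide H3K36me3 peaks more often held several. With all their Ser2P peaks counted, 89.3% of the bases of these H3K36me3 peaks were covered in quartile 1, 86.1% in quartile 2, 77.8% in quartile 3 and 65.4% in quartile 4, a smaller difference. Ser2P peaks grew less than the H3K36me3 peaks that held them. Their medians were 588, 925, 1290 and 1474 bp from quartile 1 to 4, beside 633, 1027, 1605 and 2841 bp for H3K36me3.

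Wide H3K36me3 peaks more often held Ser2P at all. Ser2P was present at 18.6% of H3K36me3 peaks in quartile 1 (16.6 to 20.7), 32.5% in quartile 2, 44.2% in quartile 3 and 58.8% in quartile 4 (56.2 to 61.3). The share of all H3K36me3 bases covered was 18.6, 28.1, 34.9 and 40.2% from quartile 1 to 4. The presence of Ser2P was not compared with what peak width alone would give. Over all 5760 H3K36me3 peaks, 34.9% of the bases lay under Ser2P, between 30.8% on 3R and 37.5% on 2L.

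Most H3K36me3 peaks with Ser2P held a single Ser2P peak (2009 of 2219), while 194 held 2, 15 held 3 and 1 held 4. The 210 with several were wide, with a median of 2988.5 bp, and 174 of them were in quartile 4. A median of 81.3% of such a peak was covered, and the gaps between neighbouring Ser2P peaks had a median of 269 bp (interquartile range 140.5 to 676). The peak with 4 lies on X from 543256 to 548244. Its Ser2P peaks of 477, 1682, 1642 and 832 bp, in order of coordinate, covered 92.3% of its 4989 bp, with no H3K4me3 or Ser5P peak on it. The reverse case was rare: 11 Ser2P peaks bridged a pair of H3K36me3 peaks, the widest of them on X from 1246880 to 1250043.

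The edges of both targets lay close together. Over the start and end of all pairs, the median distance between the Ser2P edge and the H3K36me3 edge was 73 bp. Both edges were within 100 bp in 33.0% of pairs (31.2 to 34.9), against 2.92% under even placement, and at least 1 edge in 83.3% (81.8 to 84.8), against 12.7%. In quartile 1, 77.3% of pairs had both edges within 100 bp (71.8 to 82.2) against 11.2% under even placement. In quartile 4 it was 11.6% (9.69 to 13.7) against 0.428%. Edges were close but seldom the same position: no pair shared both, and 29 shared 1.

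Close edges were not limited to Ser2P with H3K36me3. Ser5P and Ser2P peaks that overlapped each other had a median edge distance of 66 bp, with both edges within 100 bp in 39.1% of 1720 pairs. For Ser5P with H3K36me3 the distance was 116 bp (23.4% of 909 pairs), and for Ser2P with H3K4me3 129 bp (18.6% of 1956 pairs). H3K4me3 and H3K36me3 edges were 190 bp apart (7.13% of 2748 pairs), and ASH2 and H3K36me3 edges 586.5 bp apart (41 of 3420 pairs). Whether shared peak finding, mappability or base composition had a part in these edges was not tested.

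A direction could be given to 4967 H3K36me3 peaks, those with an H3K4me3 midpoint within 5 kb of their own midpoint, and to 2135 pairs. On the resulting scale 0 is the end nearer H3K4me3, called the near end, and 1 is the far end. Of the directed pairs, 1071 had H3K4me3 within reach on both sides, where the nearer one set the direction. The other 311 pairs had no direction. Their Ser2P midpoints lay a median of 0.111 of the peak length from its centre, and 52.4% were on the side of the higher coordinate.

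Along all directed H3K36me3 peaks, Ser2P coverage made a plateau with a steep side at each end. With each peak cut into 20 equal bins, coverage was 24.8% in the first bin, 32.9% at its highest, in the seventh bin, 28.4% in bin 18 and 15.9% in bin 20, the last. The flanking bins just outside had 11.9% at the near end and 3.71% at the far end. Coverage in these flanks then went down to 3.97% on the near side and to 2.11% on the far side before it came up again farther out. In quartile 4 the plateau was highest close to H3K4me3, at 42.8% in the third bin, and stood at 38.8% in bin 11 and 39.4% in bin 16.

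**Figure D1:**
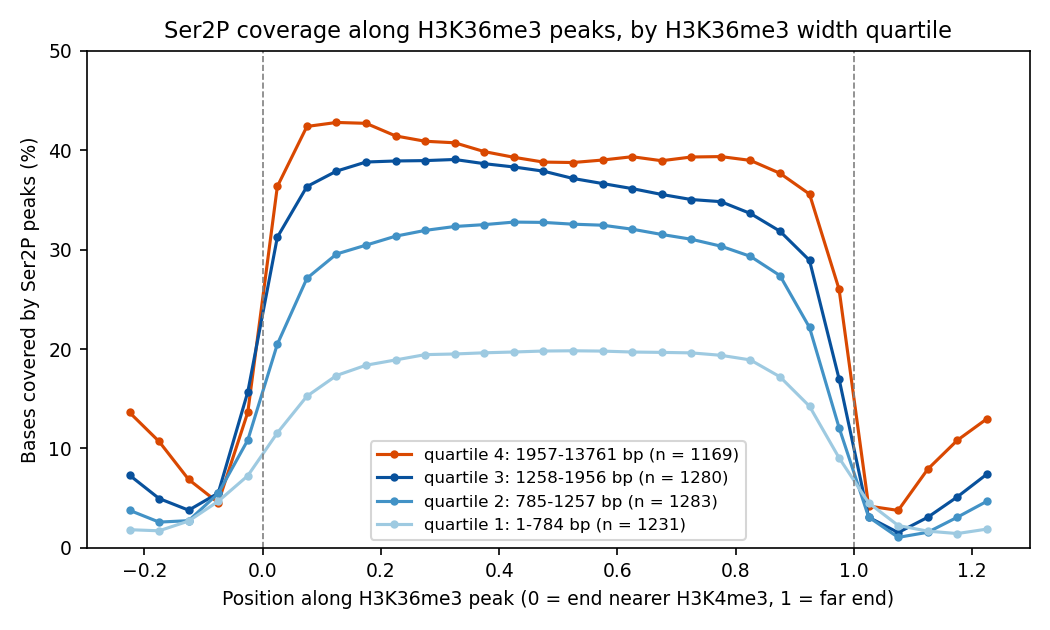
Percent of bases covered by Ser2P peaks (y axis) in 20 bins along H3K36me3 peaks and 5 bins of the same size in each flank (x axis, 0 at the end nearer H3K4me3), for the 4 H3K36me3 width quartiles. Peaks without Ser2P are included, and dashed lines mark the ends. Coverage drops at both ends in every quartile and reaches 42.8% in the widest one.

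Within pairs, Ser2P midpoints gathered just on the H3K4me3 side of the centre. Their median position was 0.478 (0.474 to 0.482), and 37.2% of them were on the far side of the H3K36me3 peak, above 0.5 (795 of 2135, 35.2 to 39.3), where even placement gives 50%. The share on the far side was under 50% on each of the 5 arms, from 35.4% on 2R to 41.0% on 3R. Without the Ser2P peaks that also overlapped H3K4me3 the share was 58.8%. H3K4me3 set the direction, so overlap with it is tied to the side of the midpoint. Of the 1261 pairs left out in this way, 281 had the midpoint on the far side. The 37.2% includes these pairs, and the part of geometry in either share was not tested.

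When H3K36me3 peaks were cut into 3 equal sections, 61.6% of the midpoints were in the middle section, against 19.8% under even placement. The near section held 21.5% and the far section 15.7%, each against 19.8%. Only 17 midpoints (0.796%) lay before the near end and 10 (0.468%) past the far end, where even placement would put 20.4% on each side. A Ser2P peak that fills most of its H3K36me3 peak and lies inside it must have its midpoint near the centre. The contrasts with even placement here therefore go with the share covered and do not measure central placement separately.

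By width, the far side held 38.6% of the midpoints in quartile 1 (32.5 to 45.01), 32.8% in quartile 2 (28.4 to 37.4), 31.6% in quartile 3 (27.9 to 35.5) and 43.1% in quartile 4 (39.7 to 46.5). The interval of quartile 4 did not overlap those of quartiles 2 and 3. Midpoints were also far more scattered there. The middle section held 92.3% of them in quartile 1, 86.6% in quartile 2, 61.8% in quartile 3 and 39.8% in quartile 4. Among pairs with Ser2P wholly inside, the length left uncovered was a median of 82.5 bp in quartile 1 and 1504.5 bp in quartile 4, so midpoints had little room to move in narrow peaks. In quartile 4 the near section held 32.6% and the far section 26.7%, against 22.1% under even placement.

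**Figure D2:**
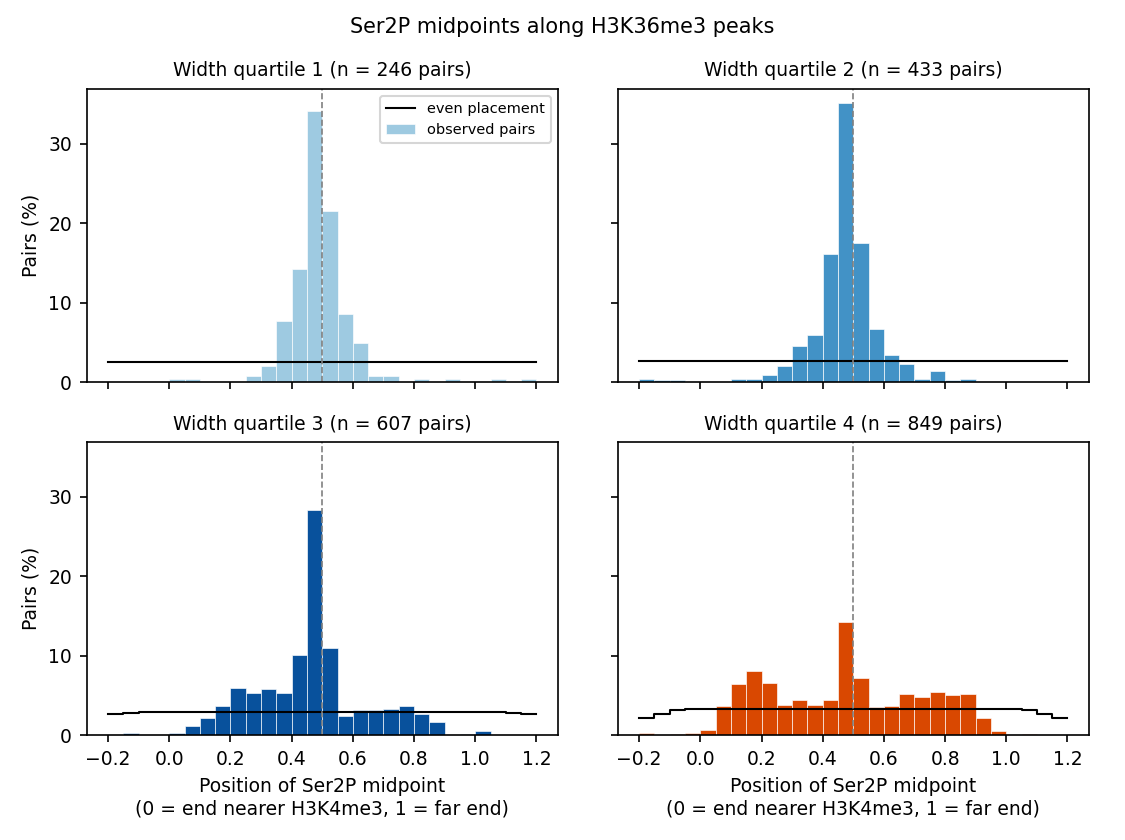
Percent of pairs (y axis) by position of the Ser2P midpoint along the H3K36me3 peak (x axis, 0 at the end nearer H3K4me3), 1 panel for each H3K36me3 width quartile. Bars are observed pairs, the black line is even placement and the dashed line the centre. Midpoints pile up just below 0.5 in quartiles 1 to 3 and spread over the whole peak in quartile 4.

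The lean toward the near end can also be read from the edges, since the midpoint follows from the insets at both ends. It is the same lean and not a second result. At the near end the Ser2P edge lay a median of 12 bp inside the H3K36me3 edge (8 to 18), and at the far end 62 bp inside (56 to 69). On X the near inset had a median of -2 bp, where a negative inset lies outside the H3K36me3 peak, and the far inset 46 bp. Ser2P reached past the near end in 43.5% of pairs and past the far end in 17.7%. Among the 1080 pairs that stuck out at 1 end only, 816 did so at the near end (75.6%, 72.9 to 78.1), with arms from 70.3% on 3R to 78.7% on 2R. The overhang was short, with a median of 55.5 bp at the near end and 30 bp at the far end.

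**Figure D3:**
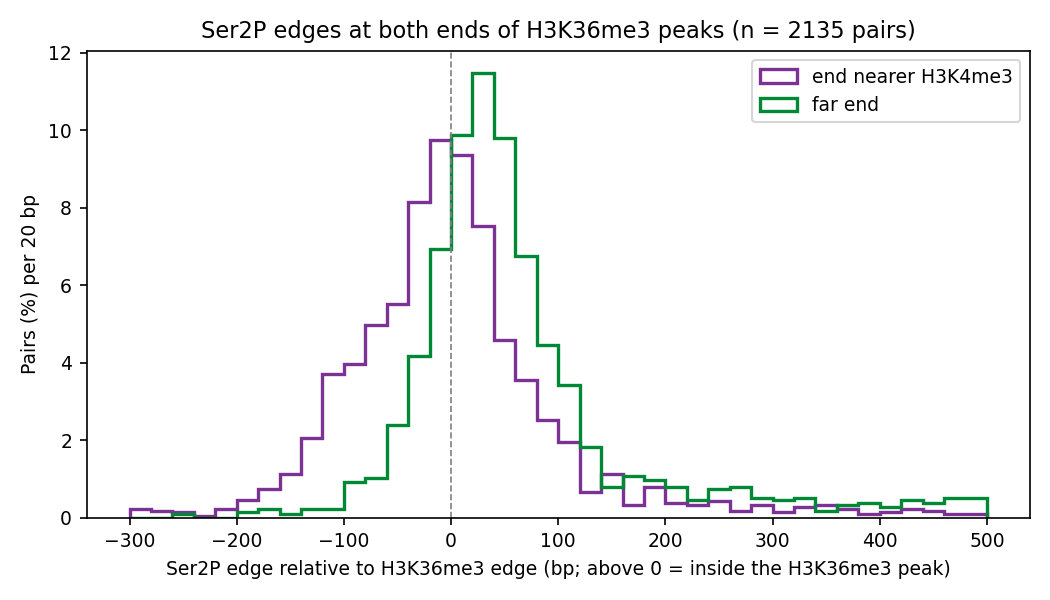
Distance from the Ser2P edge to the H3K36me3 edge in bp (x axis, above 0 inside the H3K36me3 peak) against the percent of 2135 directed pairs in 20 bp steps (y axis), at the end nearer H3K4me3 and at the far end. Values below -300 bp (47 pairs near, 26 far) and from 500 bp up (439 near, 523 far) are off the plot. The near curve sits around 0, and the far curve is shifted to the inside.

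Ser2P peaks lying wholly inside showed no such lean when pooled. Keeping only these left out 816 pairs that stuck out at the near end only and 264 at the far end only. That selection by itself raises the share on the far side. In the 939 directed pairs with Ser2P wholly inside and room to spare, the room left had a median of 586 bp. The Ser2P peak sat farther from the near end than from the far end in 52.3% (49.0 to 55.5). In quartile 4 that share was 58.1% (53.3 to 62.8, 430 pairs) and in quartile 1 it was 42.4% (32.1 to 53.1, 92 pairs). Evenly placed peaks would give 50%. With that room cut into 3 equal sections, 42.1% of the inside Ser2P peaks sat in the far section, 22.3% in the middle and 35.7% in the near section. Even placement would give 33.3% in each. In quartile 4 the shares were 50% in the far section, 15.8% in the middle and 34.2% in the near section. Over all quartiles, the share farther from the near end was 64.8% in H3K36me3 peaks with 2 or more Ser2P peaks (57.8 to 71.4, 199 pairs) and 48.9% in those with 1 (45.3 to 52.6, 740 pairs). It was 40.4% for inside Ser2P peaks that overlapped H3K4me3 (35.1 to 45.8, 339 pairs) and 59% for those that did not (54.9 to 63.0, 600 pairs). Among all directed pairs, inside or not, the far side held 43.1% of the midpoints in quartile 4. It held 49.9% in H3K36me3 peaks with 2 or more Ser2P peaks and 34.6% in those with 1. Ser2P peaks that share an H3K36me3 peak do not overlap each other, so they tend to fall on both sides of its centre. A share near 50% can thus come from geometry, and the part of geometry was not tested. The intervals do not take into account that such pairs share an H3K36me3 peak.

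Distance from H3K4me3 went with position. With the H3K4me3 midpoint under 500 bp from the H3K36me3 midpoint, 25.3% of Ser2P midpoints were on the far side (22.1 to 28.6, 712 pairs). The share was 34.8% at 500 to 1000 bp (30.5 to 39.4), 44.0% at 1000 to 2000 bp (39.4 to 48.6), 45.9% at 2000 to 3000 bp (39.3 to 52.5) and 54.3% at 3000 to 5000 bp (48.1 to 60.4). The ranges over arms of the closest and the farthest class did not overlap, at 22.6 to 30.6% under 500 bp and 47.1 to 58.2% at 3000 to 5000 bp. In quartile 1, where midpoints can move least, the order was not kept: 36.3% under 500 bp, 45.2% at 500 to 1000 bp, 37.1% at 1000 to 2000 bp, 36.7% at 2000 to 3000 bp and 53.3% at 3000 to 5000 bp, the last from 15 pairs.

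**Figure D4:**
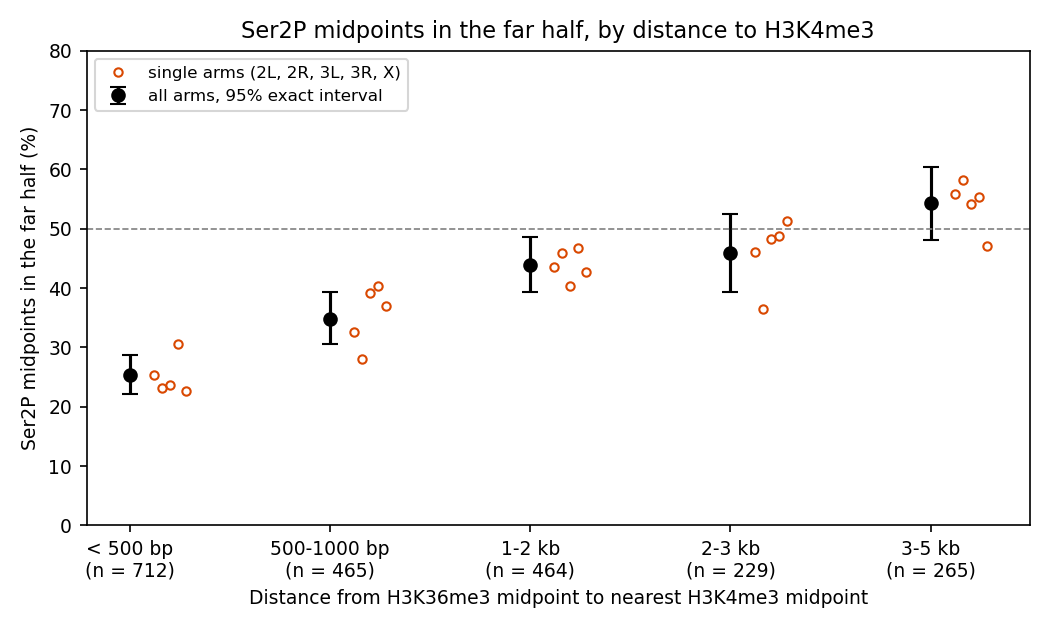
Percent of Ser2P midpoints on the far side of the H3K36me3 peak (y axis) by distance from the H3K36me3 midpoint to the nearest H3K4me3 midpoint (x axis). Black points are all arms with exact 95% intervals, open points are the 5 single arms and the dashed line is 50%. The share goes up with distance, from 25.3% to 54.3%.

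The lean was stronger where H3K4me3 lay inside the H3K36me3 peak. Where the H3K4me3 midpoint was inside, 31.3% of Ser2P midpoints were on the far side (28.9 to 33.9, 1343 pairs), and where it was outside, 47.2% (43.7 to 50.8, 792 pairs). The arms ranged from 27.6 to 35.1% with it inside and from 45.2 to 51.6% with it outside. Inside or outside follows from the distance to H3K4me3 and the H3K36me3 width, so this is not a result apart from the distance classes. H3K4me3 set the direction in both comparisons, and the part of geometry in them was not tested.

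Pooled over widths, Ser2P peaks that touched H3K4me3 and those that did not had median positions on opposite sides of the centre. Of the 1261 directed pairs whose Ser2P peak overlapped an H3K4me3 peak, 22.3% had the midpoint on the far side (20.01 to 24.7, arms 18.5 to 27.03), at a median position of 0.452. Of the 874 whose Ser2P peak overlapped none, 58.8% did (55.5 to 62.1, arms 54.2 to 61.5), at a median of 0.518. Since H3K4me3 set the direction, a Ser2P peak that reaches it may lie on its side by geometry. The part of geometry was not tested, so this contrast is a description only. H3K4me3 was present at 87.0% of the Ser2P peaks that stuck out past the near end only and at 43.6% of those past the far end only.

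Along the length of the H3K36me3 peak, promoter targets thinned out while Ser2P stayed. In quartile 4, H3K4me3 covered 66.4% of the bases of the first bin, 17.2% in bin 9 and 4.59% at its lowest inside the peak. It came up again to 8.43% in bin 19. H3K4me3 set the direction, so its own slope is a description only. ASH2, a subunit of the complexes that methylate H3K4, covered 41.1% in the first bin, 2.35% at its lowest and 9.17% in the last bin. The labels give for ASH2 a catalogue number of an antibody sold against the HA tag, so what that list measures is less sure than for the others. Ser5P covered 18.5% in the first bin, 19.3% in the second, 8.77% in bin 19 and 5.03% in the last. Ser2P, by contrast, covered 36.4% in the first bin, 35.6% in bin 19 and 26.01% in the last. Just outside the near end, H3K4me3, Ser5P and Ser2P each had a dip, to 26.2, 9.17 and 4.54%, while ASH2 stood at 40.1% in the bin where Ser2P was lowest.

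**Figure D5:**
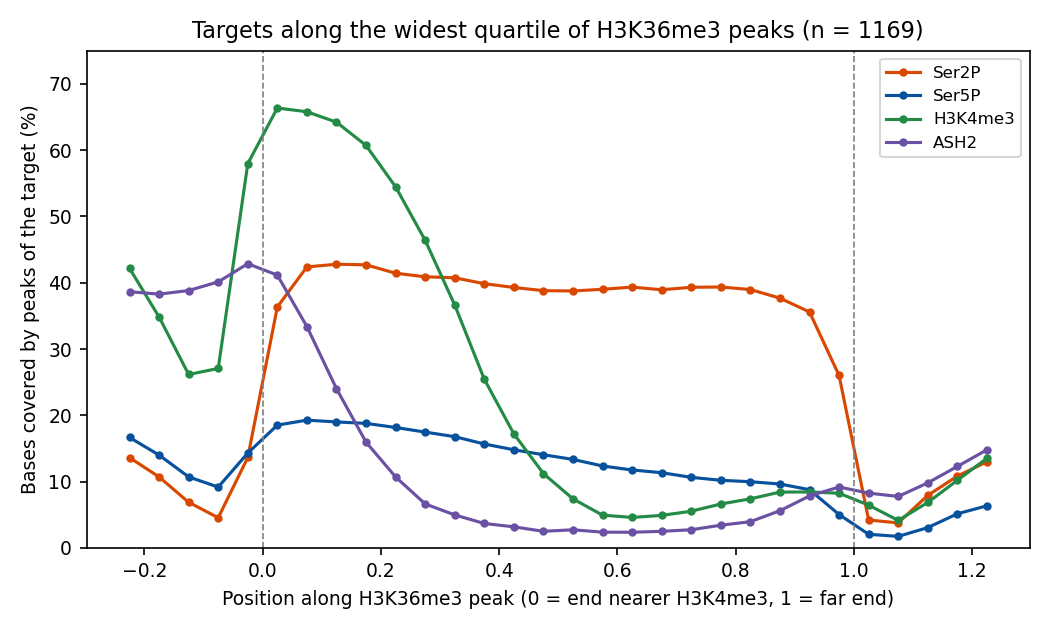
Percent of bases covered by peaks of Ser2P, Ser5P, H3K4me3 and ASH2 (y axis) along the 1169 directed H3K36me3 peaks of width quartile 4 and their flanks (x axis, 0 at the end nearer H3K4me3). H3K4me3 set the direction of the scale. Ser2P stays between 35.6 and 42.8% in all bins of the peak but the last, Ser5P declines slowly, and H3K4me3 and ASH2 are concentrated at the near end.

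Ser5P and ASH2 were also less frequent at the Ser2P peaks themselves from the near to the far section. By section of the H3K36me3 peak, and counting midpoints past an end with the nearest section, Ser5P was present at 42.3% of Ser2P peaks in the near section (37.8 to 46.9), 34.2% in the middle section and 21.7% in the far section (17.5 to 26.5). ASH2 was present at 63.4% in the near section (58.9 to 67.7), 52.9% in the middle and 30.1% in the far section (25.3 to 35.3). H3K27me3, the Polycomb mark, was rare in all 3 sections, at 4.42, 5.48 and 2.61%. Ser2P peaks had median widths of 996 bp in the near section, 1171 bp in the middle and 964 bp in the far section.

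Ser2P peaks with Ser5P leaned more to the near end than those without. The far side held 27.1% of the midpoints of the 726 with Ser5P (23.9 to 30.5, arms 24.0 to 33.6) and 42.4% of the 1409 without (39.8 to 45.1, arms 40.7 to 44.8). In quartile 4 the shares were 25.6% with Ser5P (20.2 to 31.7) and 49.9% without (45.9 to 54.0). In quartile 1 they were close, at 39.4% and 38.2%. Overlap with H3K4me3, which set the direction, was not held fixed in these contrasts. The 874 pairs whose Ser2P peak had no H3K4me3, with or without Ser5P, had 58.8% of midpoints on the far side. The 771 of them that also had no Ser5P stood at 58.2% (54.7 to 61.7). The part of H3K4me3 in the contrast by Ser5P was not tested.

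On the same scale, Ser2P midpoints lay farther from the near end of the H3K36me3 peak than Ser5P midpoints. The distance of either form from H3K4me3 itself was not measured. Ser2P had 37.2% on the far side and Ser5P 14.6% (12.3 to 17.1, 877 directed Ser5P pairs), with medians of 0.478 and 0.398. These shares and medians come from different sets of H3K36me3 peaks. Where both forms were present, the medians were closer, at 0.459 for Ser2P and 0.405 for Ser5P. In the 690 H3K36me3 peaks that held both forms, the Ser2P midpoint was farther out than the Ser5P midpoint in 70.4% (66.9 to 73.8, arms 66.2 to 74.8), by a median of 45.5 bp (38.5 to 55.5). For H3K36me3 peaks with several peaks of 1 form, the one with the largest overlap was used. The median difference was 39.5 bp in quartile 1, 44.25 bp in quartile 2, 47.5 bp in quartile 3 and 55.5 bp in quartile 4.

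H3K36me3 peaks with Ser2P differed from those without in more than width. The 2219 with Ser2P were 1661 bp wide at the median (middle 50% from 1075.5 to 2416), and the 3541 without were 1063 bp (664 to 1631). Ser5P was present at 32.3% of those with Ser2P and at 4.83% of those without, and H3K4me3 at 59.5% and 37.2%. The gap in Ser5P held at every width: 35.1% with Ser2P and 4.10% without in quartile 1, 34.3% and 5.14% in quartile 2, 36.3% and 5.49% in quartile 3, and 27.3% and 4.88% in quartile 4. For H3K4me3 it narrowed with width, at 54.1% with Ser2P and 21.7% without in quartile 1, and 57.1% and 50% in quartile 4. H3K27me3 was found at 5.59% of peaks with Ser2P and 4.97% of peaks without.

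The presence of Ser2P also went with the distance to H3K4me3. In quartile 1 Ser2P was present at 35.7% of H3K36me3 peaks with H3K4me3 under 500 bp away (30.9 to 40.8), 19.0% at 500 to 1000 bp, 10.3% at 1000 to 2000 bp, 16.1% at 2000 to 3000 bp and 8.67% at 3000 to 5000 bp (4.93 to 13.9). It was present at 11.2% of those with no direction. In quartile 4 it was 80% under 500 bp (63.1 to 91.6, 28 of 35 peaks) and from 56% to 60.6% in the 4 farther classes, with 57.2% where no direction could be given.

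The 2393 Ser2P peaks outside H3K36me3 differed from the paired ones in width and in most, but not all, of the other targets. Paired Ser2P peaks had a median width of 1099 bp (767.5 to 1621) and unpaired ones 619 bp (454 to 957). H3K4me3 was present at 51.5% of paired and 27.6% of unpaired Ser2P peaks, and Ser5P at 31.0% and 39.8%. H3K27me3 was present at 4.60% of paired and 20.9% of unpaired peaks. ASH2 was nearly equal, at 46.5% of paired and 49.8% of unpaired peaks. Unpaired peaks were mostly not near misses: their median gap to the closest H3K36me3 peak was 4878 bp (interquartile range 957 to 25614), and 25.7% had one within 1000 bp. These contrasts were not split by Ser2P width, and the part of width in them was not tested.

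Single regions show the arrangement. Of the 5 widest H3K36me3 peaks with Ser2P, 4 had no H3K4me3 midpoint within 5 kb of their own midpoint, a limit that ends inside the peak or close to its ends at such widths. The widest, on 3R from 20062462 to 20073662 (11201 bp), held 3 Ser2P peaks of 3251, 834 and 5107 bp that together covered 82.1% of it, with no peak of another target. Those on X from 6135287 to 6146041 (10755 bp) and on 2L from 6975420 to 6984923 (9504 bp) each held 1 Ser2P peak, over 73.9% and 95.3% of their length, and no peak of another target either. The fourth, on X from 3849685 to 3858774 (9090 bp), has its nearest H3K4me3 midpoint on the side of the higher coordinate. Its 3 Ser2P peaks sat at positions 0.113, 0.584 and 0.903 and covered 48.7% of it. The fifth, on X from 15615588 to 15624580 (8993 bp), was covered by 1 Ser2P peak over 71.5%.

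Among pairs with a direction, the one with the largest overlap in bp in each width quartile serves as an example. In quartile 4 it lies on X from 10359543 to 10366332. Its Ser2P peak of 6837 bp had an inset of 26 bp at the near end and -73 bp at the far end, with its midpoint at 0.507, with no H3K4me3, Ser5P or ASH2 peak on the H3K36me3 peak. In quartile 1 it lies on 2R from 11429102 to 11429880 (779 bp). There the Ser2P insets were -101 bp at the near end and -62 bp at the far end, H3K4me3 covered the whole peak and Ser5P 93.7% of it. In quartile 2, on 2R from 19813135 to 19814391 (1257 bp), they were -166 and 6 bp. In quartile 3, on 2R from 4810368 to 4812303 (1936 bp), they were -666 and 7 bp. H3K4me3 covered 41.3% of the quartile 2 peak and 88.2% of the quartile 3 peak.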

How the data were processed

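All 6 targets and the input had 1 library each of wing imaginal discs; no values of the input were used. For each target the authors deposited peak positions as chromosome, start and end, as their deposited column description says. The build is dm3, taken from the submitters' processing notes. Which aligner, peak caller and threshold were used, and whether peaks were set against the input, is not stated in the labels or lists. The lists hold no score or coverage, so depth is unknown. Starts were raised by 1 bp for printing, and entries of 0 bp (1 in the H3K36me3 list, 2 in H3K4me3, 306 in ASH2 and 108 in H3K27me3) were given 1 bp.

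Pairs shared at least 1 bp. Direction came from the H3K4me3 midpoint nearest the H3K36me3 midpoint, within 5 kb. Even placement was computed in closed form, without random draws. Intervals are exact (Clopper-Pearson for shares, order statistics for medians). Coverage along peaks left out 4 directed H3K36me3 peaks under 20 bp. Named regions followed a fixed rule: the widest H3K36me3 peaks with Ser2P, the directed pair with the largest overlap per width quartile, and the peaks with most partners. The members and measures were chosen with earlier results of these data known. Other settings tried were an overlap of 50%, the wider 50% of the lists, joined peaks, 1 pair per H3K36me3 peak and 5 other ways to set the direction or keep pairs. The computations used Python 3.11.15, numpy 2.4.6, scipy 1.17.1 and matplotlib 3.10.9, and were tested on simulated data.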

Additional observations from a re-analysis of the deposited data

How the results depend on the processing

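The 8 main values were recomputed under 13 alternatives, 9 planned and 4 chosen after seeing the data, which gave 92 values. Of these, 58 stayed within the interval (for pooled bases, the range over arms) of the value reported, 28 left it and 6 crossed the middle of the scale. The share of midpoints on the far side stayed under 50% in 58 of its 63 recomputed values. With the wider 50% of both lists, the median share covered was 72.3% and quartile 3 had 27.25% on the far side; quartiles 1 and 2 then had too few pairs for a value. Joining both lists over 200 bp gave 94.9% of Ser2P bases inside. With 1 pair for each H3K36me3 peak the median share covered was 84.2%. With H3K4me3 within 2 kb the median position was 0.470 and the far side held 33.3% (quartile 2, 28.0%; quartile 3, 27.45%). With the nearest H3K4me3 midpoint outside the H3K36me3 peak, the position was 0.491 and the far side held 45.3% (46.6, 43.4 and 46.7% in quartiles 2 to 4). The alternatives below were added. Among the first 50% of the entries, quartile 1 had 51.2% from 43 pairs and quartile 4 38.5%. Without Ser2P peaks that overlap H3K4me3, 97.7% of bases were inside and the median share covered was 67.5%. The position was then 0.518 and the far side held 58.8% (43, 52.6, 54.5 and 66.9% in quartiles 1 to 4). Without Ser2P peaks that overlap Ser5P, the values were 97.5%, 75.4%, 0.487 and 42.4% (35.9 and 49.9% in quartiles 3 and 4). Joining H3K36me3 over 1000 bp gave 97.2%, 33.1% and 44.1% (32.4, 36.1 and 46.7% in quartiles 1, 3 and 4). The longer peaks made by joining lower the share covered by construction; the causes of the other changes were not tested. Without scores or reads, neither the depth behind a peak nor the precision of its edges could be assessed.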
